A study of Arabidopsis thaliana with 4 samples.

Results

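The 44 core histone genes of Arabidopsis thaliana described here encode histones H2A, H2B, H3 and H4, and they were compared between seeds of the ddcc mutant and wild-type seeds. They were chosen by gene code as members of these families, out of 27416 genes in the tables, after results of the same comparison had been seen. The values of ddcc against wild type are therefore given as a description, and the calls among these genes are not independent evidence. The families hold 13 genes for H2A, 11 for H2B, 12 for H3 and 8 for H4. By role, 27 were counted as replication-dependent (canonical H2A, H2B other than AT1G08170, H3.1 and H4) and 17, with AT1G08170 among them, as variants.

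Transcripts were sequenced from whole seeds of greenhouse plants of the Columbia ecotype, whose embryos had reached the post-mature green stage, late in seed maturation. The ddcc group and the wild-type group held 2 biological replicates each, and the labels do not say how many plants or seeds went into a library, so p-values measure only the spread between these libraries. The name ddcc stands, in the field, for plants that lack the DNA methyltransferases DRM1, DRM2, CMT2 and CMT3, which maintain cytosine methylation outside the CG context and also set new methylation. The labels give only the short name, without the alleles. Both groups share the ecotype, the tissue and the stage.

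Core histones form the protein spool of the nucleosome, with a pair of H2A-H2B dimers around a tetramer of H3 and H4. Replication-dependent forms are made mainly in S phase to package newly copied DNA, while variants such as H3.3, H2A.Z, H2A.W and H2A.X can be deposited outside replication and mark particular chromatin. H3.3 and H2A.Z are found over genes and H2A.W in heterochromatin, and phosphorylated H2A.X marks DNA damage.

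The values are normalised read counts as deposited, scaled across libraries and not divided by gene length. Reads inferred from them came to 1122934 for ddcc replicate 1, 1166635 for ddcc replicate 2, 3416071 for wild-type replicate 1 and 1292023 for wild-type replicate 2. In normalised units, 3 reads are worth 3.54 and 3.63 in ddcc, against 1.59 and 3.96 in wild type. DRM2 had 4.85 and 8.33 normalised reads in ddcc seeds, against 39.3 and 39.6 in wild-type seeds. DRM1 had no read in any library, CMT2 had 2 reads in ddcc and 1 in wild type, and CMT3 had 2 in ddcc and 8 in wild type, too few to check the labels. One label of wild-type replicate 2, its source name, reads ddcc, against 3 labels that read wild type, and its DRM2 value lies beside that of wild-type replicate 1. Of 5 embryo markers 4 were tested, and the seed storage and oil body genes SESA3, CRA1 and OLEO1 had log2 fold changes of -0.70, -0.05 and -0.69, with both ddcc libraries below both wild-type libraries. None of these was called (limma; by unadjusted p under 0.05, 1 was lower, and voom called 1 lower). ABI3, a maturation regulator, was called higher (limma, adjusted p = 0.0422, and by voom). The summed level of the list was 35312 and 39541 in ddcc, against 53426 and 42733 in wild type, and LEC1, an early embryo regulator, was at 0. Of 7 endosperm markers 5 were tested and none called (limma; by unadjusted p under 0.05, 1 was lower and 1 higher, and voom called 1 higher). Their sum, nearly all from EPR1, was 23687 and 32228 in ddcc, against 13988 and 15752 in wild type, with ZOU and PHE1 at 0. Of 8 seed coat markers 4 were tested and none called (1 higher at an unadjusted p under 0.05, 0 by voom), with sums of 129 and 127 in ddcc, against 121 and 53.6 in wild type and BAN at 0. Of 6 silique wall and flower markers 2 were tested and none called (0 at an unadjusted p under 0.05, 0 by voom). They summed to 15.2 and 9.90 in ddcc, against 19.6 and 6.0 in wild type, with IND, SHP2 and FUL at 0. The part of these markers in the histone values was not tested, and in whole seeds fewer cells of a type and less RNA per cell cannot be told apart.

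On the deposited scale, the summed level of core histone transcripts was lower in ddcc seeds in each of the 4 families. For H2A the sums were 786.1 and 714.8 in ddcc, against 1029 and 1240 in wild type. For H2B they were 526.8 and 576.4 in ddcc, against 929.6 and 860.1 in wild type. For H3 they were 1502 and 1402 in ddcc, against 3497 and 2525 in wild type, and H4 is given below. By single gene, 7 fell: 2 each for H2A, H3 and H4 and 1 for H2B. Summed over the 44 genes, the normalised read counts were 2966 and 2834 in ddcc, against 5861 and 4956 in wild type, so that no ddcc library reached a wild-type one. A large part of these sums came from 1 H3.3 gene, AT4G40040, with 1236 and 1139 in ddcc, against 3115 and 2197 in wild type. The sums over all genes in the tables were lower in ddcc as well. They were 1325380 and 1410910 in ddcc, against 1815260 and 1705080 in wild type, so a lower sum is not particular to the histones. A mean level of at least 1 unit, which is 1.56 normalised reads, was needed for a test, and 36 of the 44 genes had it. The limma test, adjusted by Benjamini-Hochberg over all 15780 genes tested, called 7 of the 36 lower, which is 19.4%, where 3.45% of all genes were called lower and 6.48% in either direction. It called none higher, where 3.03% of all genes were (0 at an unadjusted p under 0.05 and 0 by voom), and 15 were lower at an unadjusted p under 0.05. Both ddcc libraries lay below both wild-type libraries for 23 of the 36, or 63.9%, against 25.3% of all genes. Both lay above for 1 gene, or 2.78%, against 25.7% of all genes, and 12 genes overlapped. The log2 fold change was below 0 for 34 of the 36, or 94.4%, against 48.9% of all genes, and its median was -0.70 over the 36 genes and 0.02 over all genes.

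**Figure D1:**
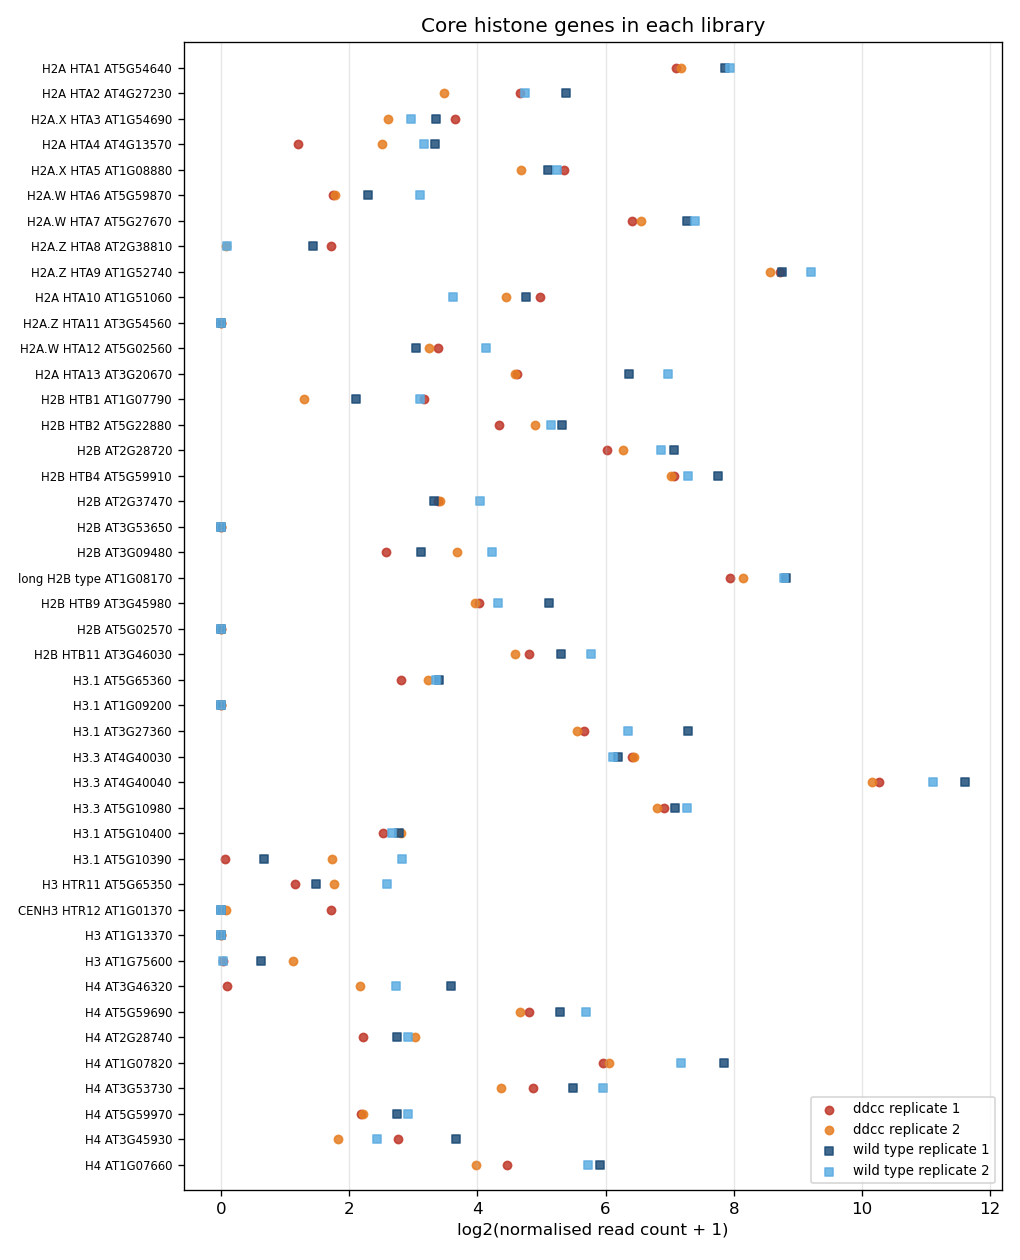
Level of each of the 44 core histone genes in the 4 libraries, as log2(normalised read count + 1), with genes grouped by family. Libraries are told apart by colour, with circles for ddcc and squares for wild type. AT4G40040, an H3.3 gene, has the highest level in every library, and 5 genes have no read in any.

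**Figure D2:**
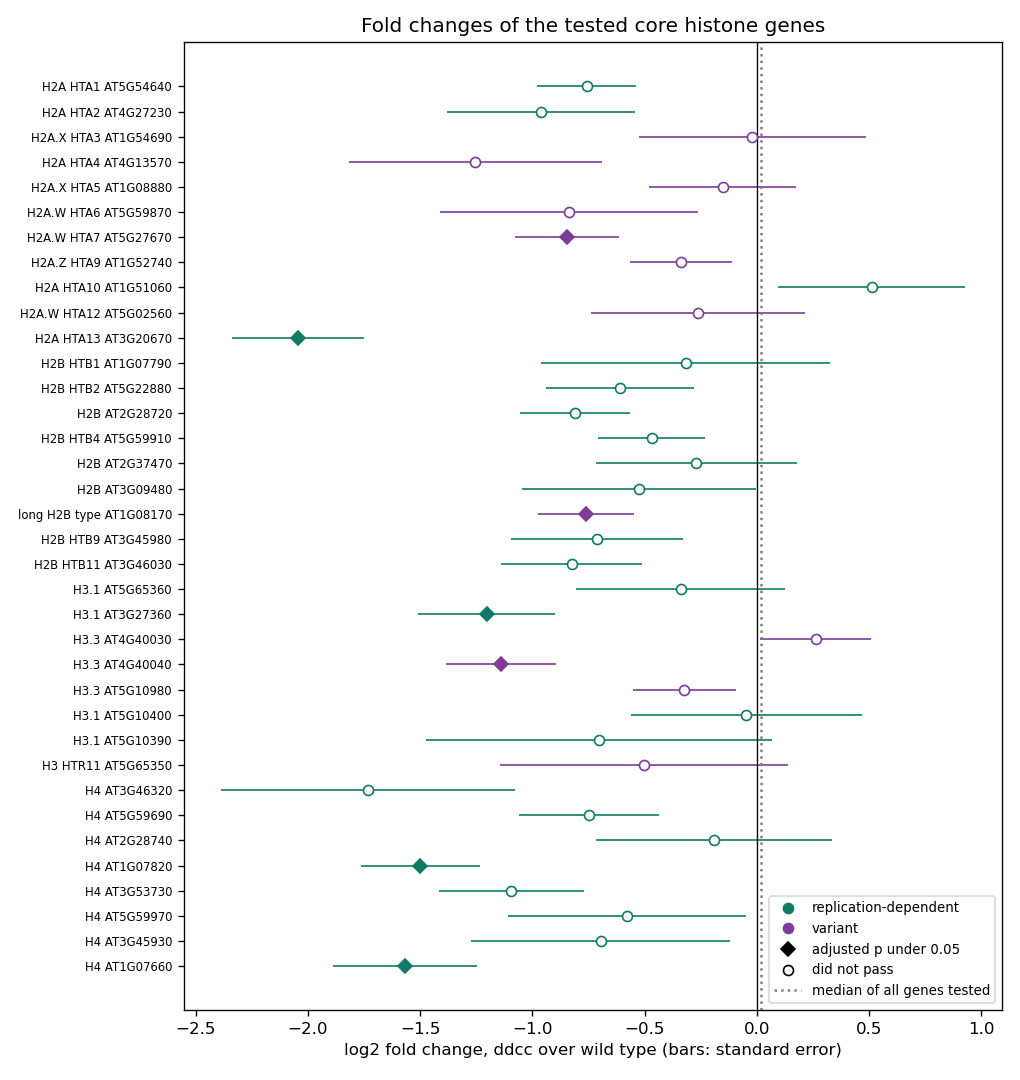
Log2 fold change of ddcc over wild type with its standard error for the 36 tested genes, coloured by role, with filled diamonds for the 7 called genes and a dotted line at the median of all genes tested. All but HTA10 and AT4G40030 lie below 0.

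The replication-dependent genes and the variants both had medians below 0. Of 27 replication-dependent genes 24 were tested and 4 called lower, with 16 lower in both ddcc libraries than in both wild-type libraries and 8 overlapping. Their median log2 fold change was -0.71, with a range of -2.04 to 0.51. Of 17 variants 12 were tested and 3 called lower, with 7 lower in both ddcc libraries, 1 higher in both and 4 overlapping, and their median was -0.42, with a range of -1.25 to 0.26. Over all genes tested, 3.45% were called lower, 25.3% were lower in both ddcc libraries and 25.7% higher in both. Whether the roles differ was not tested. Leaving out wild-type replicate 1 changed the median of the variants to -0.76, and leaving out wild-type replicate 2 changed it to -0.22.

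Among the canonical H2A genes, which encode the bulk of H2A laid down at replication, HTA13 (AT3G20670, chr3:7229390-7230146, plus strand) had the lowest fold change of all tested members. It had 23.6 and 23.0 normalised reads in ddcc, against 81.7 and 124.5 in wild type, the reads behind them being 20 and 19 for ddcc and 156 and 95 for wild type. The ddcc libraries were close to each other and far below both wild-type libraries. The log2 fold change was -2.04 ± 0.29 (SE, n = 2 each), with an adjusted p of 0.00126 (limma). HTA13 overlaps AT3G20680 on the opposite strand by 79 bases, and that gene had 15.4 and 16.9 in ddcc, against 60.4 and 78.7 in wild type (log2 fold change -1.99, adjusted p = 0.0021). No source says that counting used the strand, so reads in the shared bases could belong to either.

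HTA1, also known as RAT5 and needed for Agrobacterium T-DNA integration, had 135.8 and 143.9 in ddcc, against 231.4 and 243.9 in wild type. Both ddcc values were lower, and the log2 fold change of -0.76 ± 0.22 had an adjusted p of 0.0532, which misses the threshold narrowly. HTA2 had 24.4 and 10.11 in ddcc, against 40.6 and 25.7 in wild type, also without overlap, at an adjusted p of 0.2. HTA10 had a fold change above 0, with 30.5 and 20.8 in ddcc, against 26.0 and 11.3 in wild type, values that overlap (log2 fold change 0.51, adjusted p = 0.53). HTA10 and HTA13 match over 114 bases at 98.2% identity, and the 4 canonical H2A proteins share 92.4% to 95.4% of their residues. Summed, canonical H2A was 214.2 and 197.8 in ddcc, against 379.7 and 405.4 in wild type.

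The 250 bases before the annotated transcription start of HTA13 and HTA10, the members with the smallest p in each direction, are shown because both hold the plant histone octamer motif. Capitals mark the octamer CGCGGATC or its reverse complement GATCCGCG, and the sequences are RefSeq TAIR10.1, plus strand, 5′ to 3′, from chr3:7229140-7229389 for HTA13 and chr1:18926561-18926810 for HTA10.
HTA13: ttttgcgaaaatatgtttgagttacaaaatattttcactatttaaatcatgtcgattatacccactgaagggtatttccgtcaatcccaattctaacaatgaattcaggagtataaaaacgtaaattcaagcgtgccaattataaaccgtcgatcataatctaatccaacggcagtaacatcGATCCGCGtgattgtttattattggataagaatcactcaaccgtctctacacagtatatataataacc
HTA10: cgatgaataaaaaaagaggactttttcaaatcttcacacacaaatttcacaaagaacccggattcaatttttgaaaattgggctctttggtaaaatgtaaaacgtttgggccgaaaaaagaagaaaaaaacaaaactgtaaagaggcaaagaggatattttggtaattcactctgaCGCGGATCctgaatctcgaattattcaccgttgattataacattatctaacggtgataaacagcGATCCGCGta
The octamer begins 68 bases before the start of HTA13, and 74 and 10 bases before that of HTA10. The gene called lower and the gene with the highest positive fold change thus both carry it.

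The H2A.W genes, whose proteins sit in heterochromatin, were led by HTA7 (AT5G27670, chr5:9792509-9793560, minus strand). It had 83.9 and 93.0 in ddcc, against 152.7 and 167.4 in wild type, with both ddcc libraries lower. It fell by 0.84 on the log2 scale (SE 0.23, limma adjusted p = 0.0431). Among alternative fits to all libraries, the call was lost without a filter, without a variance trend, with quantile normalisation and with equal nuclear totals. HTA6 and HTA12, the other H2A.W genes, had low levels of 2.38 and 2.43 for HTA6 and 9.43 and 8.52 for HTA12 in ddcc, against 3.89 and 7.65 for HTA6 and 7.24 and 16.5 for HTA12 in wild type. HTA6 was lower in both ddcc libraries and HTA12 overlapped, and neither passed the test. HTA12 spans the whole of AT5G02570, an H2B gene on the opposite strand with no read. The H2A.W proteins share 73.3% to 77.6% of their residues.

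The other H2A variants did not pass the test. HTA9, an H2A.Z gene with the highest H2A level, had 421.2 and 378.7 in ddcc, against 431.9 and 591.6 in wild type. The ddcc libraries were lower, but by little against the spread of the wild-type libraries (log2 fold change -0.34 ± 0.23, adjusted p = 0.431). The other H2A.Z genes were hardly seen: HTA8 had 2 reads in ddcc and 3 in wild type, and HTA11 had none. The H2A.X genes HTA3 and HTA5, whose proteins carry the phosphorylation site of the DNA damage response, summed to 51.4 and 29.7 in ddcc, against 42.4 and 43.6 in wild type, which overlap. HTA3 shares 259 bases with AT1G54680 and HTA9 21 bases with AT1G52750, both on the opposite strand. HTA4, a divergent H2A, is nearest to HTA8 and HTA11, with 81.1% identity to each over 90 residues. HTA4 had 1.303 and 4.69 in ddcc, against 9.08 and 8.02 in wild type, from 5 and 23 reads in all. It did not pass the test (limma adjusted p = 0.216).

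The shares of these classes in the H2A pool lay apart between the groups. On normalised reads per kilobase of transcript, H2A.Z made up 54.6% and 53.7% of H2A transcripts in ddcc, against 42.2% and 47.4% in wild type. H2A.Z thus took a larger share in both ddcc libraries, while the canonical forms took a smaller one. Nearly all of the H2A.Z share was HTA9, with 54.34% and 53.71% in ddcc, against 42.05% and 47.41% in wild type. The level of HTA9 itself was not higher in ddcc, so a larger share is not a gain of H2A.Z transcripts. Canonical H2A made up 28.4% and 28.6% in ddcc, against 39.0% and 34.9% in wild type. HTA13 alone made up 3.86% and 4.14% in ddcc, against 10.09% and 12.65% in wild type. H2A.W held 11.4% and 13.5% in ddcc, against 14.4% and 14.1% in wild type, and H2A.X held 5.49% and 3.42% in ddcc, against 3.41% and 2.82% in wild type. The ddcc shares lay outside the wild-type range for each of these classes, for H2A.X by little. These differences in share were not tested.

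**Figure D3:**
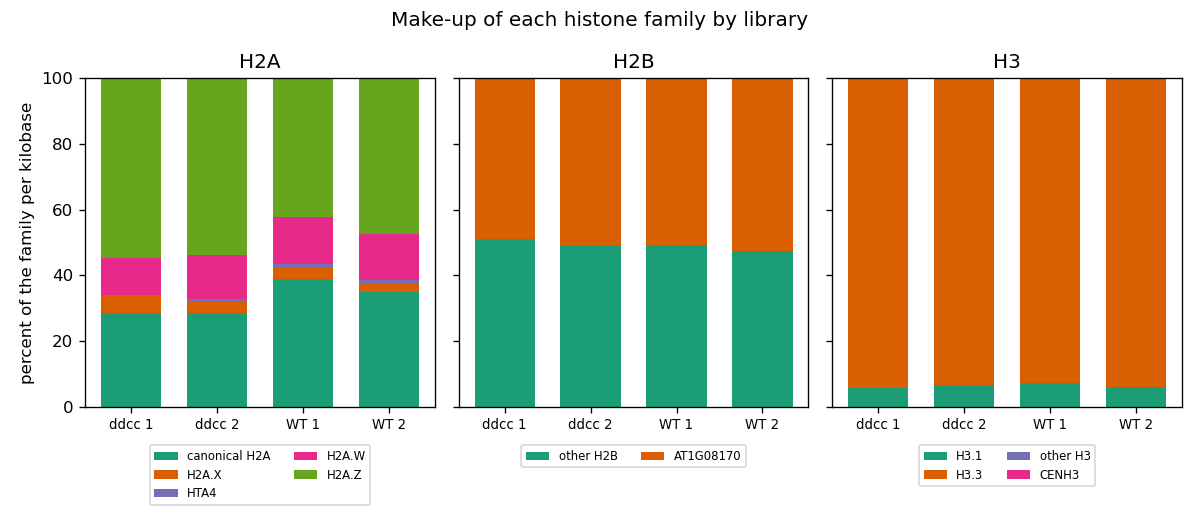
Share of each class, in percent of the transcripts of its family per kilobase, in the 2 ddcc and the 2 wild-type libraries for H2A, H2B and H3. H2A.Z takes a larger and canonical H2A a smaller share in both ddcc libraries, while the shares of AT1G08170 in H2B and of H3.1 and H3.3 in H3 overlap.

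Of the 11 H2B genes 9 were tested and 1 called lower, where 3.45% of all genes tested were. AT1G08170 (chr1:2562769-2563706, minus strand) encodes a long protein of the H2B type, with 243 residues where the other H2B proteins have 126 to 151, and it matches them at 47.2% to 51.2% identity. It was also the H2B gene with the highest level, at 245.7 and 281.6 in ddcc, against 451.0 and 442.0 in wild type. Both ddcc libraries were lower, and the log2 fold change was -0.76 ± 0.21 with an adjusted p of 0.0471 (limma). Among alternative fits to all libraries, the call was lost with a pseudocount of 0.5 units, without a filter and without a variance trend. It was also lost with quantile normalisation, equal nuclear totals and a replicate block. Per kilobase it held 48.97% and 50.97% of H2B transcripts in ddcc, against 50.7% and 52.7% in wild type, values that overlap.

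The other 10 H2B genes, which share 83.6% to 99.3% of their residues, summed to 281.2 and 294.8 in ddcc, against 478.6 and 418.1 in wild type. Of the 8 tested among them none was called (limma; by unadjusted p under 0.05, 2 were lower and 0 higher, and voom called 0), with a median log2 fold change of -0.57. HTB4 was the highest, at 133.3 and 129.5 in ddcc, against 214.5 and 155.0 in wild type, without overlap (adjusted p = 0.278). AT2G28720 had 63.9 and 76.0 in ddcc, against 132.6 and 115.1 in wild type, again without overlap (adjusted p = 0.0639). HTB11 had 27.1 and 23.1 in ddcc, against 38.6 and 53.6 in wild type, HTB9 had 15.3 and 14.6 in ddcc, against 33.8 and 19.1 in wild type, and HTB2 had 19.1 and 28.8 in ddcc, against 39.0 and 34.5 in wild type. All 3 were lower in both ddcc libraries and did not pass. HTB9 and HTB11 match over 379 bases at 95.3% identity, and HTB9 overlaps AT3G45970 on the opposite strand by 22 bases. HTB1, AT2G37470 and AT3G09480 had means of at most 10.9 and their groups overlapped, and AT3G53650 and AT5G02570 had no read.

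Most H2B genes carried a second sequence in common. The hexamer ACGTCA was found in 9 of the 10 shorter H2B genes, within 250 bases before to 50 after the start, and the windows of 5 are shown in TAIR10.1, 5′ to 3′ on the gene's strand, because the letters after it are alike too. Capitals mark the hexamer.
HTB9 (chr3:16898152-16898181, minus): accaatattgacACGTCAtcgatcccgctt
HTB11 (chr3:16914202-16914231, minus): gtaatatattccACGTCAtcaatcctcgtg
HTB1 (chr1:2412895-2412924, plus): tgagaaatatacACGTCAatgatcctcgtg
AT2G37470 (chr2:15736667-15736696, plus): tttatttaagccACGTCAtcgatcctcgcg
AT3G53650 (chr3:19889189-19889218, plus): tggatggatgacACGTCAtcgatccgcaag
The hexamer begins 156, 88, 31, 48 and 96 bases before the start in the order shown. In each window the letters atc follow the hexamer after 3 other bases, a pattern that was searched for only after these windows had been seen.

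Over the same windows of all genes, on both strands, the hexamer was in 13 of the 44 members (29.5%) and in 2522 of 27443 protein-coding promoters (9.19%). The hexamer followed, after any 3 bases, by ATC was in 9 members (20.5%) and 64 promoters (0.233%), the members being 7 H2B genes, AT5G10980 and AT1G07820. The octamer was in 9 members (20.5%) and 40 promoters (0.146%). The E2F-type sequence TTTCCCGC was in none of the members and in 219 promoters (0.798%), and the telo box AAACCCTA was in 2 members (4.55%) and 1707 promoters (6.22%). These are matches of letters, not sites of binding, and a missing match says nothing of the factor. The octamer was in 7 of 27 replication-dependent genes and 2 of 17 variants. Of its 9 genes, HTA13, AT4G40040 and AT1G07660 fell in ddcc, HTA6, HTA10, AT5G65360, AT5G10400 and AT5G59690 did not pass the test, and AT1G09200 had no read. The octamer windows of the 3 genes that fell are shown on the same build, again 5′ to 3′ on the gene's strand, with the octamer in capitals.
HTA13 (chr3:7229310-7229341, plus): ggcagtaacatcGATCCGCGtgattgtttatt
AT4G40040 (chr4:18558943-18558974, minus): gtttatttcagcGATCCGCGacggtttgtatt
AT1G07660 (chr1:2368695-2368726, plus): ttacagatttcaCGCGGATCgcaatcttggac

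H3 transcripts came almost wholly from the H3.3 genes, which encode the replacement form of H3 and per kilobase held 93.98% and 93.09% of the family in ddcc, against 92.64% and 93.7% in wild type. AT4G40040 (chr4:18557149-18558945, minus strand) was the most abundant core histone transcript in every library, at 1236 and 1139 normalised reads in ddcc, against 3115 and 2197 in wild type. Both ddcc libraries were lower, and the wild-type libraries differed from each other as well. It fell by 1.14 on the log2 scale (SE 0.25, limma adjusted p = 0.0134). Among alternative fits to all libraries, the call was lost without a filter, without a variance trend and with quantile normalisation. Per kilobase its level was 958.5 and 883.9 in ddcc, against 2417 and 1705 in wild type.

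The other H3.3 genes encode the same residues as AT4G40040 over the 136 of that protein, but their values differed. AT5G10980 had 119.1 and 110.2 in ddcc, against 135.1 and 152.8 in wild type, a small difference without overlap (log2 fold change -0.32 ± 0.23, adjusted p = 0.46). AT4G40030 had 83.8 and 85.9 in ddcc, against 72.3 and 68.7 in wild type, the only tested member with both ddcc libraries higher (log2 fold change 0.26 ± 0.25, adjusted p = 0.596). Of H3 transcripts per kilobase, AT4G40040 held 74.5% and 73.0% in ddcc, against 83.8% and 80.8% in wild type. AT4G40030 held 8.20% and 8.93% in ddcc, against 3.16% and 4.10% in wild type. The difference between the H3.3 genes in their fold change was not tested.

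H3.1, the replication-dependent H3, is encoded by 5 genes with 1 and the same protein of 136 residues, which matches that of AT4G40040 at 132 positions (97.1%). AT3G27360 (chr3:10129105-10129937, minus strand) was the one with most reads, at 49.5 and 46.0 in ddcc, against 155.8 and 80.3 in wild type. The ddcc libraries were lower, and the 2 wild-type libraries lay far apart. It fell by 1.203 on the log2 scale (SE 0.30, limma adjusted p = 0.0300). Among alternative fits to all libraries, the call was lost without a filter, without a variance trend and with equal nuclear totals. AT3G27360 shares 328 bases with AT3G27380 on the same strand, which had 21.2 and 19.4 in ddcc, against 26.8 and 22.6 in wild type (log2 fold change -0.26, adjusted p = 0.722). AT5G65360, AT5G10400 and AT5G10390 each had at most 25 reads in a group and did not pass, and AT1G09200 had none. Summed, H3.1 was 60.3 and 62.8 in ddcc, against 171.8 and 101.1 in wild type, and per kilobase it held 5.74% and 6.43% of H3 in ddcc, against 7.23% and 5.91% in wild type, which overlap.

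The remaining H3 genes were close to the detection limit. HTR11, with 95.6% identity to H3.1, had 3 reads in ddcc and 8 in wild type. HTR12, the centromeric H3 known as CENH3, which marks the site of the kinetochore, had 2 reads in ddcc and 0 in wild type, too few for a fold. AT1G75600, with 96.3% identity to H3.3, had 1 read in each group, and AT1G13370, with 94.9%, had none. In all, 5 of the 44 genes had no read in any library (HTA11, AT3G53650, AT5G02570, AT1G09200 and AT1G13370). None of their 50-base windows occurs elsewhere in the genome, and at this depth up to 3 reads a library cannot be told from none.

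The H4 genes all encode 1 protein of 103 residues. The log2 fold change was below 0 for 8 of 8, against 48.9% of all genes tested, with a median of -0.92. Pairs of near copies, named below, are among them, so the 8 are not separate cases. Summed, H4 was 150.8 and 140.7 in ddcc, against 405.9 and 330.8 in wild type. Of the 8 genes, 2 were called lower, where 3.45% of all genes tested were. AT1G07820 (chr1:2421089-2422066, minus strand) had 61.4 and 65.3 in ddcc, against 230.4 and 143.4 in wild type, and AT1G07660 (chr1:2368833-2369735, plus strand) had 21.1 and 14.7 in ddcc, against 59.2 and 51.7 in wild type. Neither gene's groups overlap. AT1G07820 fell by 1.499 on the log2 scale (SE 0.26, limma adjusted p = 0.00462), and AT1G07660 fell by 1.57 (SE 0.32, adjusted p = 0.0106).

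These 2 genes are near copies, 98% identical over 406 bases, so their reads may have been split by the counting. Among the 312 coding bases 6 differ. The first 60 coding bases show how alike they are, beside AT3G53730, an H4 gene with the same protein and a more distant sequence. Capitals mark bases that differ from AT1G07820, and the sequences are RefSeq TAIR10.1, 5′ to 3′.
AT1G07820: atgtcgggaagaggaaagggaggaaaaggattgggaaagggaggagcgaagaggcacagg
AT1G07660: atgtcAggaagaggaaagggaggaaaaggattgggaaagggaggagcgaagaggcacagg
AT3G53730: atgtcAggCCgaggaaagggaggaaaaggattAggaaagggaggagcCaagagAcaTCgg
Of the 50-base windows of the transcripts, 19.4% of AT1G07820 and 28.5% of AT1G07660 occur elsewhere in the genome.

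AT3G53730 had none of its windows repeated and showed 28.1 and 19.6 in ddcc, against 43.9 and 61.5 in wild type. Both ddcc libraries were lower, and the log2 fold change of -1.09 ± 0.32 missed the threshold narrowly (adjusted p = 0.0598). AT5G59690 had 27.1 and 24.3 in ddcc, against 38.2 and 51.0 in wild type, also without overlap (adjusted p = 0.179). AT3G46320, AT3G45930, AT5G59970 and HIS4 (AT2G28740) had at most 11.8 in any library and did not pass. AT3G46320 had the lowest log2 fold change of the H4 genes, at -1.73 (limma adjusted p = 0.14), from only 3 reads in ddcc and 24 in wild type. AT3G46320 and AT5G59970 were lower in both ddcc libraries, while AT3G45930 and HIS4 overlapped. AT3G46320 and AT3G45930 are near copies as well, 98.4% identical over 379 bases, and so are AT5G59690 and AT5G59970, 96.7% identical over 331 bases.

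Leaving out a library leaves a group of 1, which is then assumed to vary like the other group. Without ddcc replicate 1 or ddcc replicate 2, limma called none of all 15780 genes, so the loss of the core histone calls there says nothing of these genes. At an unadjusted p under 0.05, 9 core histone genes were lower and 0 higher in either case. The log2 fold changes were -2.06 and -2.03 for HTA13, -1.46 and -1.54 for AT1G07820 and -1.81 and -1.33 for AT1G07660 without ddcc replicate 1 and without ddcc replicate 2. Without wild-type replicate 1, HTA13 alone was called, where 1.02% of all genes were called lower. Without wild-type replicate 2, HTA13, AT1G07820, AT3G27360 and AT4G40040 were called, where 1.31% of all genes were called lower. When libraries were scaled to equal totals of nuclear genes, the median of all genes moved to 0.37, and relative to it the median of the replication-dependent genes was -0.74 and that of the variants -0.48.

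**Figure D4:**
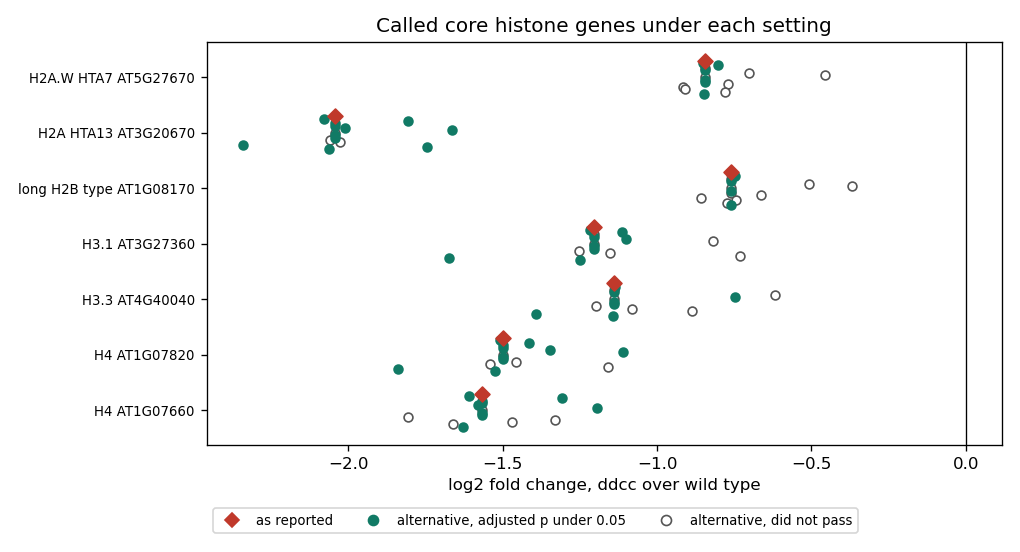
Log2 fold change of ddcc over wild type of the 7 called genes, as reported (red diamonds) and under each alternative (filled where the adjusted p stayed under 0.05, open where it did not). Every point lies below 0, and HTA13 lies between -2.34 and -1.66.

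Other genes of chromatin assembly and of the cell cycle gave the surroundings of these values. The linker histones, which bind DNA between nucleosomes, had 1 of 3 genes called lower, where 3.45% of all genes were, and a median log2 fold change of -0.91. H1.3 (AT2G18050), the stress-induced linker histone, had 129.3 and 75.6 in ddcc, against 296.4 and 347.9 in wild type. Both ddcc libraries were far below the wild type, and it fell by 1.68 on the log2 scale (SE 0.26, limma adjusted p = 0.00221).

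Of 21 histone chaperones and remodellers, which carry histones to DNA and place them, 18 were tested and 1 called higher, with a median of 0.01. Of all genes tested, 3.03% were called higher. NAP1;3, a nucleosome assembly protein that carries H2A and H2B, had 141.5 and 121.1 in ddcc, against 44.8 and 30.9 in wild type. Both ddcc libraries were higher, and it rose by a log2 fold change of 1.77 ± 0.27 (limma adjusted p = 0.00196). NAP1;2 had the highest level of the list, at 701.1 and 726.8 in ddcc, against 837.5 and 739.0 in wild type, and did not pass (adjusted p = 0.766).

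Genes of DNA replication were mostly near the detection limit. Of 17, 8 were tested and none called (limma; by unadjusted p under 0.05, 3 were higher and 0 lower, and voom called 0), with a median of 0.40. RNR1, a subunit of ribonucleotide reductase, was the highest at 42.4 and 35.2 in ddcc, against 33.7 and 39.4 in wild type, which overlap. MCM3, part of the replicative helicase, had the smallest p, with 8 reads in ddcc and none in wild type (adjusted p = 0.0899). Of 13 cell cycle genes 6 were tested and none called (0 at an unadjusted p under 0.05 in either direction, 0 by voom), with a median of 0.45. RBR1, the plant retinoblastoma protein that restrains entry into S phase, had the highest level and the smallest p of that list, at 60.3 and 68.8 in ddcc, against 39.6 and 56.2 in wild type, without overlap (adjusted p = 0.409).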

How the data were processed

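RNA was measured in 4 libraries, 2 of ddcc and 2 of wild-type seeds. Per the labels' protocols, total RNA was amplified with a NuGEN Ovation kit before library preparation. The authors used the TAIR10 build, Bowtie 0.12.7 and edgeR 3.10.5, per the submitters' processing notes. How reads were mapped and counted, and whether by strand, is not given in the sources used here. Each deposited table holds a signal, the normalised read count of 27416 genes. The 2 wild-type tables hold different values, although per the file headers each is replicate 2.

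Undoing the equalised library sizes that the authors' edgeR gives led to whole reads (tolerance 0.01) for 100% of 18481 genes in ddcc and 99.98% of 18429 genes in wild type. Because the values were deposited as normalised counts, the main test was run on the log scale and no count test was run. The inferred reads served for depths, floors and voom. Intervals of counting error were not computed, and floors cover counting error only.

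A unit is 1.56, the mean column total per 1e6. Genes whose mean reached 1 unit were fitted with limma 3.58.1 in R 4.3.3 on log2(value + 1 unit), with a variance trend. Fold changes on that scale understate changes of low genes. P-values were adjusted by Benjamini-Hochberg over 15780 genes and called under 0.05. The members and lists were chosen with earlier results of these data known.

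All 44 members are accounted for. Of the companion lists (linker histones, chaperones and remodellers, DNA replication, cell cycle) the highest mean, the smallest p and every called gene are named, with the targeted methyltransferases and markers of embryo, endosperm, seed coat and silique wall with flower. Names, positions and sequences came from RefSeq TAIR10.1, which keeps the nuclear sequences of TAIR10, through Biopython 1.88, and genes without a name there are given by code. Copies of at least 95% identity over 100 bases were sought with BLAST+ 2.17.0. The alternatives were pseudocounts of 0.5 and 5 units, no filter or one at 5 units, quantile normalisation, equal nuclear totals, no trend, robust moderation, a replicate block, leaving out each library, and voom.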

Additional observations from a re-analysis of the deposited data

How the results depend on the processing

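No core histone gene was called higher under any alternative. With equal nuclear totals, 7 were lower and 2 higher at an unadjusted p under 0.05 (limma), beside 15 and 0 as reported. The log2 fold change was then below 0 for 26 of 36 genes, beside 34 as reported. The count called lower was 7 as reported, 4 with quantile normalisation (2.78% of all genes called lower) and 4 with equal nuclear totals (1.3%). Without a filter it was 3 of 39 members tested, where 0.734% of 19745 genes were called lower. Without a variance trend it was 0 (limma, 13 at an unadjusted p under 0.05), where 0.00634% of all genes were called lower. It was 6 and 8 at pseudocounts of 0.5 and 5 units (3.11% and 3.66% of all genes called lower), 9 with a filter at 5 units (5.29%), 10 with robust moderation (4.36%) and 8 with voom (3.97%), beside 3.45% as reported. Over all genes, 478 were called higher and 545 lower as reported, beside 585 and 438 with quantile normalisation, 191 and 145 without a filter, 1434 and 205 with equal nuclear totals and 32 and 1 without a trend. Leaving out single libraries gave 0 to 256 higher and 0 to 206 lower. The share of higher calls was 46.7%, 57.2% with quantile normalisation and 87.5% with equal nuclear totals. The causes were not tested.

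The median of the replication-dependent genes was -0.76 and -0.53 with pseudocounts of 0.5 and 5 units, -0.76 with a filter at 5 units, -0.77 with quantile normalisation, -0.37 with equal nuclear totals, and -0.73 to -0.70 without single libraries. That of the variants was -0.11 with equal nuclear totals and -0.76 to -0.22 without single libraries.

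Signs turned only in genes that were not called. With equal nuclear totals the log2 fold change was 0.31 for HTA3, 0.22 for HTA5, 0.054 for HTA9, 0.075 for HTA12, 0.072 for AT2G37470, 0.067 for AT5G10980, 0.26 for AT5G10400 and 0.11 for AT2G28740, and HTA3 was at 0.005 with 5 units added. Without single libraries, the ranges were -0.51 to 0.47 for HTA3, -0.48 to 0.18 for HTA5, -0.039 to 1.06 for HTA10, -0.78 to 0.26 for HTA12, -1.15 to 0.52 for HTB1, -0.61 to 0.07 for AT2G37470, -1.05 to 0.007 for AT3G09480, -0.174 to 0.082 for AT5G10400, -1.62 to 0.21 for AT5G10390 and -0.56 to 0.17 for AT2G28740.

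Same-numbered replicates did not deviate together (correlation -0.0455, only 2 numbers), so the numbers are not taken as pairs. With the replicate block 7 core histone genes were called (4.51% of all genes were called lower), with AT3G53730 in and AT1G08170 out. Depth limits the genes with few reads, since 3 reads amount to 1.59 to 3.96 normalised reads.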
